A study of Homo sapiens with 40 samples.

Results

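The response of the lymphoma line HT to the EZH2 inhibitor GSK126 was set against that of the other EZH2 wild type lines in the series, OCI-LY-19 and Toledo. The members were chosen by genotype and line: the 12 arrays of the wild type lines, out of 40 arrays in all. All 3 are established cell lines, derived from diffuse large B-cell lymphoma, a tumour of mature B cells. The 6 groups, of 2 arrays each, were HT with 500 nM GSK126, HT with 0.1% DMSO as vehicle, OCI-LY-19 with GSK126, OCI-LY-19 with DMSO, Toledo with GSK126 and Toledo with DMSO, all harvested after 72 h. The growth IC50 given in the labels was 516 nM in HT, 1019 nM in OCI-LY-19 and 13786 nM in Toledo, so HT was treated near its IC50 and the other lines below theirs. The remaining 28 arrays are of 7 EZH2 mutant lines under the same treatments. Each side of the comparison rests on named lines, with 1 line on the HT side, so a difference describes HT against those lines and not sensitive against resistant lines in general.

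EZH2 is the catalytic subunit of Polycomb repressive complex 2 (PRC2), which places methyl groups on lysine 27 of histone H3 at silenced genes, many of them with CG-rich promoters. In germinal centre B cells, from which most such lymphomas are thought to derive, EZH2 is abundant and holds back genes of cell cycle exit and of plasma cell differentiation. GSK126 blocks its methyltransferase activity, and genes that had been held silent can then be transcribed.

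Throughout, a level is log2(signal + 17.72), where 17.72 is a pseudocount on the authors' scale and 4.15 is the lowest value possible. A response is the GSK126 level minus the DMSO level within a line, and a difference is the HT response minus the mean of the OCI-LY-19 and Toledo responses. Errors given as ± are standard errors of a limma fit over the 12 arrays, and a gene was called at a Benjamini-Hochberg adjusted p under 0.05 over all 13479 genes tested. The labels speak of biological replicates but do not say whether their cultures were grown apart, so p-values measure the spread between these arrays.

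Correlations between arrays were 0.986 to 0.990 for replicates, 0.984 to 0.988 for opposite treatments of the same line, and 0.805 to 0.871 across lines. The wild type lines carry different R tags in the labels (R7 for HT, R8 for OCI-LY-19, R6 for Toledo), and the mutant lines share these tags. R7 is also on WSU-DLCL2, SU-DHL-10, DB and SU-DHL-4, R8 on SU-DHL-6, and R6 on Pfeiffer and KARPAS-422. The meaning of the tag is not given. Tag and line therefore cannot be told apart between the wild type lines, while within a line both treatments share the tag. Of 5 B cell markers measured, all lay above the array median in HT and Toledo, and MS4A1 (CD20) lay at 6.52 in GSK126-treated and 5.64 in DMSO-treated OCI-LY-19, against 12.37 and 12.34 in HT and 13.59 and 13.57 in Toledo. Among 16 T and NK cell markers, CD3D, CD3G, CD2 and CD8A were above the array median on 0 of 12 arrays. CD247 was above it on 12 arrays, CD3E on 11, LCK and NCAM1 on 8 each and ZAP70 on 5, and ZAP70 lay at 10.09 in GSK126-treated and 10.14 in DMSO-treated OCI-LY-19. The summed linear signal of the 16 was 9866 to 9882 in HT with GSK126 and 11285 to 11898 in HT with DMSO, 2736 to 2791 and 2341 to 2776 in OCI-LY-19, and 902 to 944 and 866 to 1034 in Toledo. Most of the HT sum came from LCK, whose level was 12.69 with GSK126 and 13.01 with DMSO. Of the T and NK, myeloid, stromal and erythroid markers, 7, 3, 7 and 3 genes could be tested, and 0 were called in the difference by limma (0 higher and at most 1 lower in each at an unadjusted p under 0.05). In bulk RNA, fewer cells expressing a gene and less RNA per cell cannot be told apart.

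The response of HT was broader than that of either other line. In HT, 900 genes rose (6.68% of those tested) and 426 fell (3.16%). In OCI-LY-19, 220 rose (1.63%) and 29 fell (0.215%), and in Toledo 2 rose (0.0148%) and 1 fell (0.00742%), although 593 and 297 Toledo genes had an unadjusted p under 0.05 in each direction by the same limma fit. The genes called in Toledo were CYSTM1, at 1.55, SDR42E1, at 1.72, and NDRG4, at -1.35. Tested directly as treatment by line, 360 genes responded more positively in HT than in the mean of the other lines (2.67%), and 179 more negatively (1.33%). Of these, 57 and 23 differed by at least 2-fold, and the median difference over all genes tested was 0.0038.

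Most genes with a called difference were also called in HT itself. The difference contains the HT response in full, from the same arrays, so part of this overlap follows from how the genes were chosen. Of the 360 higher genes, 353 rose in HT and 7 had no HT call, among them the transcriptional repressor GFI1. Of the 179 lower genes, 139 fell in HT and 40 had no HT call. In 29 of those 40 the call was a rise in OCI-LY-19 or Toledo. Against OCI-LY-19 alone, 228 genes were higher in HT (1.69%) and 156 lower (1.16%). Against Toledo alone, 312 were higher (2.31%) and 114 lower (0.846%). Of the 360 higher genes 166 passed both of these single comparisons, and of the 179 lower genes 52 did. These comparisons share the HT arrays. OCI-LY-19 and Toledo themselves differed in fewer genes, 49 higher (0.364%) and 5 lower (0.0371%) in OCI-LY-19. SPIB and the MHC class II genes HLA-DRA and HLA-DRB1 were among the higher ones, and TLR9, an endosomal receptor for DNA, was among the lower ones.

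**Figure D1:**
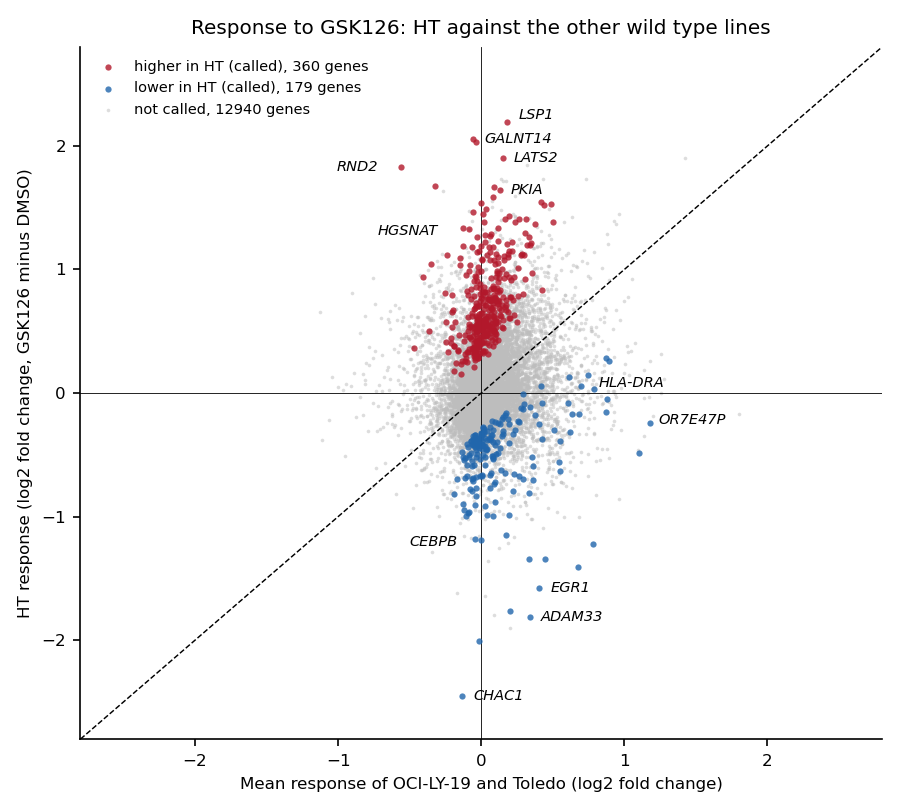
Each point is 1 of 13479 genes, with the response of HT on the vertical axis and the mean response of OCI-LY-19 and Toledo on the horizontal axis, both as log2 fold change of GSK126 over DMSO. The 360 genes called higher in HT (red) and the 179 called lower (blue) lie mostly along the vertical axis, and the dashed line marks equal responses.

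The counts depend on single HT arrays. Without HT GSK126 replicate 1 they were 189 higher and 70 lower, without HT GSK126 replicate 2 they were 211 and 100, without HT DMSO replicate 1 they were 250 and 76, and without HT DMSO replicate 2 they were 237 and 124; the lower genes also numbered 109 and 113 without OCI-LY-19 GSK126 replicate 1 or 2. Set to equal array medians, the split was 290 higher and 227 lower (56.1% higher, against 66.8%), and that of HT itself 672 risen and 877 fallen (43.4% risen, against 67.9%).

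The 10 genes with the highest differences were RND2, GALNT14, TNNI1, LSP1, FZD4, LATS2, S100A1, ARID5A, ABCA1 and PKIA, with differences of 1.52 to 2.40. GALNT14 encodes an enzyme that starts O-linked sugar chains, FZD4 is a receptor for Wnt ligands and LATS2 is a kinase of the Hippo pathway. Their promoters are shown as the first 3 of this group that have an entry in the RefSeq table, since EZH2 is known for acting at CG-rich promoters. The windows run from 250 bases before to 50 after the annotated start on build GRCh38.p14, with each CG dinucleotide in capitals.
GALNT14, chr2:31138391-31138690, minus strand: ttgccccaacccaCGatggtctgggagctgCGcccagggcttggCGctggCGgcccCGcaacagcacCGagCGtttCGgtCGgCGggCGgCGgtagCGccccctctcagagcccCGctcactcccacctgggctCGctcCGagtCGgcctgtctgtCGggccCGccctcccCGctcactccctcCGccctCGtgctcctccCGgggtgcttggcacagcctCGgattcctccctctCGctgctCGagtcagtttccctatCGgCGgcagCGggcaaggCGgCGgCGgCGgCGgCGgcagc
FZD4, chr11:86955346-86955645, minus strand: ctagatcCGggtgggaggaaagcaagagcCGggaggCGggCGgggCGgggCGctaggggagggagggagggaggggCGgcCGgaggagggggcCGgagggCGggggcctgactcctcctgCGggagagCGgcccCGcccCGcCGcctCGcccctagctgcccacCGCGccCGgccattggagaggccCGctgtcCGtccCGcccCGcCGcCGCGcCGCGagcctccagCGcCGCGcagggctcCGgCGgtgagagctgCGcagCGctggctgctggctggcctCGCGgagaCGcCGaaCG
LATS2, chr13:21061537-21061836, minus strand: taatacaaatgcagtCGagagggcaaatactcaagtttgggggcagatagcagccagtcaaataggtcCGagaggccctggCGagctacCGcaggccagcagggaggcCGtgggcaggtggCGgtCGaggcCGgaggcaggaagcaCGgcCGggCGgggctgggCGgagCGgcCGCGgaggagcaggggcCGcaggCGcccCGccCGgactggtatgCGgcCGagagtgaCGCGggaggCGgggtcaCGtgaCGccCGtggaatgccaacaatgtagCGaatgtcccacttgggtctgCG
They hold 35, 40 and 29 CG dinucleotides. Over the 299 of 360 higher genes with an entry the median was 30 (25th to 75th percentile 20 to 38), over the 147 of 179 lower genes it was 25 (13 to 35), and over all 10853 tested genes with an entry it was 25 (16 to 34).

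GALNT14 stood at 6.80 and 7.26 on the GSK126 arrays of HT, against 4.79 and 5.16 on its DMSO arrays. It stood at 11.20 and 11.27 with GSK126 and 11.15 and 11.09 with DMSO in OCI-LY-19, and at 8.17 and 8.22 against 8.63 and 8.21 in Toledo. The treated and vehicle arrays did not overlap in HT, and in both other lines the gene was already well above its HT level in DMSO. The difference was 2.11 ± 0.23 (adjusted p = 0.00066) and held its call under all 21 alternatives run for it.

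LATS2 followed the same layout, with 6.76 and 6.57 in GSK126-treated HT against 4.95 and 4.57 in DMSO-treated HT, and 8.45 to 8.91 on all 8 arrays of the other lines. Its difference was 1.75 ± 0.23 (adjusted p = 0.00205), and the call was lost when probe sets were averaged. PKIA, an inhibitor of protein kinase A, stood at 6.64 and 6.54 in GSK126-treated HT against 5.14 and 4.75 in DMSO-treated HT, and at 10.87 to 11.13 in the other lines. Its difference was 1.52 ± 0.15 (adjusted p = 0.000338). Both genes rose in HT and still stayed below every array of the other lines.

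LSP1, an actin-binding protein of leukocytes, split the other lines. It stood at 6.85 and 7.21 in GSK126-treated HT against 4.67 and 4.99 in DMSO-treated HT, near the lowest value in OCI-LY-19 (4.64 and 4.84 against 4.54 and 4.60), and at 7.56 and 7.45 against 7.32 and 7.29 in Toledo. The difference was 2.01 ± 0.36 (adjusted p = 0.0087; 0.0616 without HT GSK126 replicate 2). Treated HT stayed below every Toledo array, and OCI-LY-19 stayed near the bottom of the scale.

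RND2 had the highest difference, and part of it lay outside HT. Its HT response was 1.83 ± 0.37, from 7.32 and 7.24 with GSK126 against 6.00 and 4.89 with DMSO. In OCI-LY-19 it was -1.43 ± 0.37, which did not pass the test (adjusted p = 0.0828), and in Toledo 0.31 ± 0.37. The difference of 2.40 ± 0.45 (adjusted p = 0.0117) lost its call without HT GSK126 replicate 1 (adjusted p = 0.0608). TNNI1, slow skeletal muscle troponin I, stood at 6.49 and 7.00 in GSK126-treated HT and between 4.51 and 5.70 on every other array. TNNI1 lay above the array median only on the 2 HT GSK126 arrays, so its entry into the test depended on the group where it was high. FZD4 stood at 7.03 and 6.98 in GSK126-treated HT against 5.64 and 5.02 in DMSO-treated HT, and between 5.51 and 6.77 in the other lines.

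TNNI1, FZD4, S100A1, ARID5A and the cholesterol exporter ABCA1 kept their calls in 9, 9, 12, 13 and 12 of 21 alternatives. Over the 95 genes examined by name, the calls lost when 1 array was left out numbered 29 to 43 for the HT arrays, 14 to 23 for those of OCI-LY-19 and 10 to 19 for those of Toledo. ABCA1 rose in 6 of the 7 mutant lines and PKIA in 5, while ARID5A rose in 0.

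Other higher genes had smaller differences and closer replicates. TXNIP, an inhibitor of thioredoxin and of glucose uptake, stood at 8.54 and 8.46 in GSK126-treated HT against 7.23 and 7.40 in DMSO-treated HT. In OCI-LY-19 it read 11.90 and 11.99 with GSK126 and 11.63 and 11.91 with DMSO, and in Toledo 11.42 and 11.53 against 11.46 and 11.51. The difference was 1.10 ± 0.12 (adjusted p = 0.00066) on the probe set used, and 0.83 and 0.15 on the others. TNFRSF21, a death receptor, gave 6.31 and 4.54 in GSK126-treated HT against 4.43 and 4.69 in DMSO-treated HT, so that its treated arrays disagreed. The difference of 0.55 ± 0.51 was not called (adjusted p = 0.671), and was 1.44 without HT GSK126 replicate 2 (adjusted p = 0.0248). CDKN1A, the p21 inhibitor of cyclin-dependent kinases, was not called either, at 0.25 ± 0.28 (adjusted p = 0.739).

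HGSNAT and ARID5B were singled out after their values were seen. HGSNAT, a lysosomal acetyltransferase, read 10.58 and 10.51 in GSK126-treated HT against 9.28 and 9.13 in DMSO-treated HT, with a difference of 1.46 ± 0.12 (adjusted p = 0.000108). ARID5B, a DNA-binding protein, had a difference of 1.24 ± 0.10 on the probe set used, while its other 4 probe sets, which were above the array median on at most 2 of 12 arrays, gave -0.78 to -0.27. The average over all 5 was -0.13, so its direction depends on the probes. The lysosomal membrane protein SCARB2 had a difference of 0.85 ± 0.10 (adjusted p = 0.000736) and rose in all 7 mutant lines. It was the 1 called member among the 23 tested genes of the lysosomal list (all genes 2.67% higher).

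**Figure D2:**
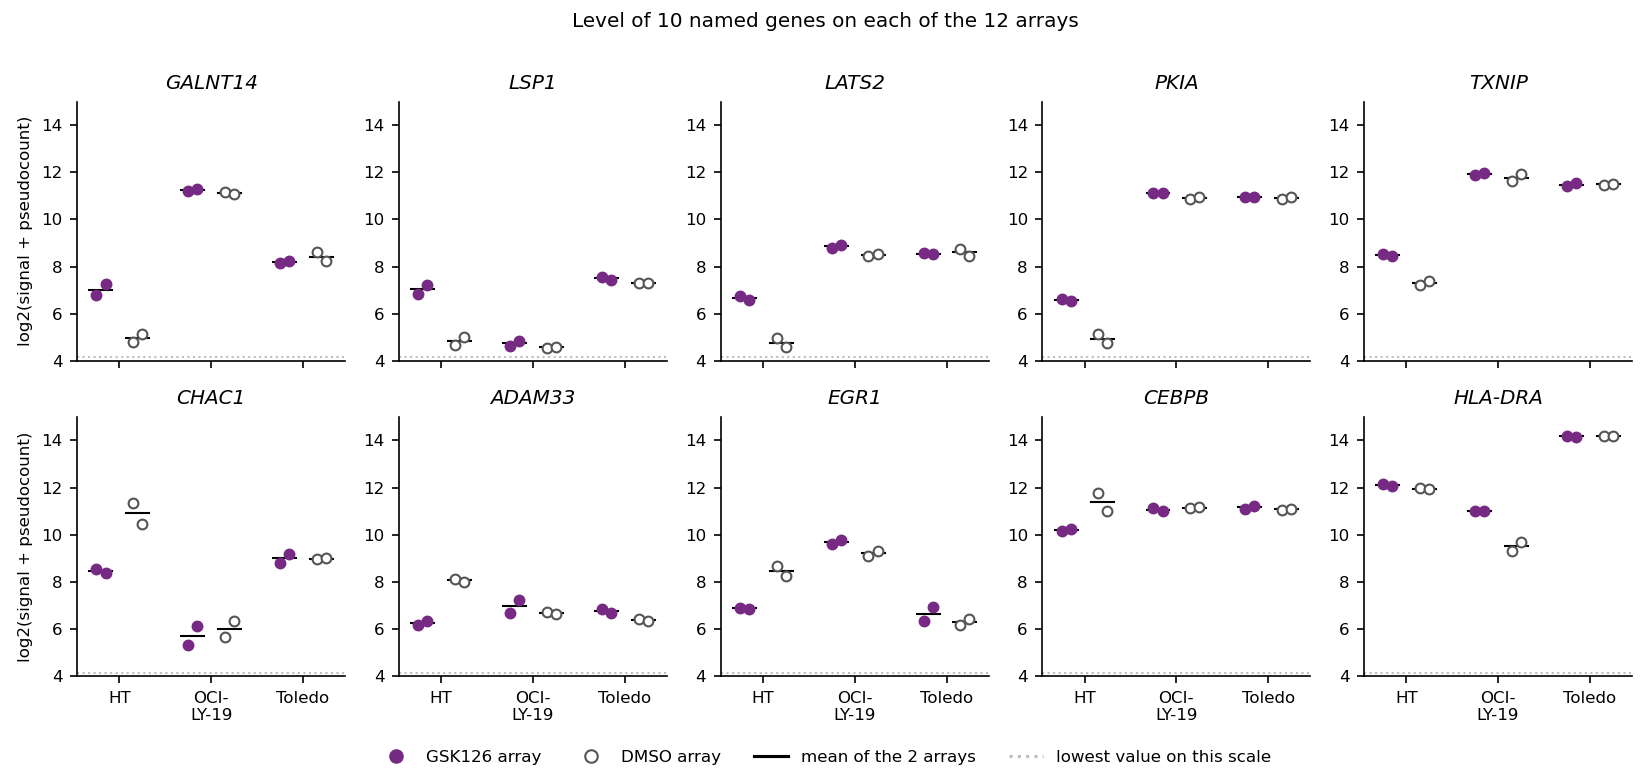
Levels of 10 named genes, as log2(signal + 17.72), on each GSK126 array (filled) and DMSO array (open), with the mean of each pair as a bar and the lowest possible value of 4.15 dotted. GALNT14, LATS2 and PKIA rose in HT from near the bottom of the scale while the other lines stayed high, and HLA-DRA changed in OCI-LY-19.

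The inhibitors of DNA binding, targets of BMP and SMAD signals that hold back differentiation, divided between both directions. Among 22 tested TGF-beta and SMAD genes, 2 were higher and 1 lower in HT (all genes 2.67% and 1.33%), with a median difference of 0.23. ID3 stood at 11.42 and 11.46 in GSK126-treated HT against 10.46 and 10.52 in DMSO-treated HT, at 13.98 and 13.99 against 13.97 and 14.11 in OCI-LY-19, and at 12.36 and 12.42 against 12.40 and 12.44 in Toledo. Its difference was 0.99 ± 0.07 (adjusted p = 7.36e-05). ID1 rose by 0.95 ± 0.21 in HT, with a difference of 1.06 ± 0.26 (adjusted p = 0.0417) that held in 8 of 21 alternatives. The higher count was 1 without any 1 of the 4 HT arrays, and also without OCI-LY-19 DMSO replicate 1, OCI-LY-19 GSK126 replicate 2, Toledo DMSO replicate 1 or Toledo GSK126 replicate 2. ID2 fell in HT, to 11.67 and 11.69 with GSK126 against 12.16 and 12.19 with DMSO, with a difference of -0.60 ± 0.10 (adjusted p = 0.0051). In the mutant lines ID1, ID2 and ID3 rose in 6, 6 and 4 of 7, so that ID2 fell in HT and rose in most of those.

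Interferon-stimulated genes were measured with 41 members, of which 4 were higher and 1 lower (all genes 2.67% and 1.33%), with a median difference of 0.087. IFITM3, which restricts the entry of viruses, stood at 6.53 and 6.62 in GSK126-treated HT against 5.22 and 5.38 in DMSO-treated HT, and at 11.53 or above on every array of the other lines. Its difference was 1.25 ± 0.12 (adjusted p = 0.000255). IFITM1, HERC5 and SAMD9 were higher by 0.65 ± 0.08, 1.08 ± 0.21 and 0.69 ± 0.13, and TRIM22 was lower, at -0.63. HERC5 lay above the array median on 0 of the HT arrays, with means of 5.79 with GSK126 and 4.65 with DMSO. Another SAMD9 probe set, above the median on all 12 arrays, gave 0.16. In HT 7 members of the list rose and 3 fell (all genes 6.68% and 3.16%), and 0 were called in OCI-LY-19 or Toledo. Without HT GSK126 replicate 1 the higher members numbered 2.

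Genes of the cytoskeleton and of chromatin gave a few calls each, where 2.67% of all genes were higher. Of 26 annexin, S100 and cytoskeletal genes 3 were higher: the focal adhesion protein vinculin (VCL, 1.01 ± 0.09, adjusted p = 0.000169), S100A13 (0.70 ± 0.11) and ANXA2 (0.55 ± 0.09). Each of the 3 lost their calls when probe sets were averaged, and the VCL probe sets differed in sign. VCL also rose in OCI-LY-19, by 0.37 ± 0.07. Of 14 subunits of Polycomb repressive complex 1, which compacts chromatin at Polycomb target genes, 3 were higher: PCGF5 (0.60 ± 0.10, adjusted p = 0.00632), PHC2 (0.57 ± 0.11) and RYBP (0.30 ± 0.07). Without HT DMSO replicate 2 or HT GSK126 replicate 2 the count fell to 1, PHC2 probe sets differed in sign, and PCGF5 held under all 22 alternatives.

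The PRC2 genes themselves showed no called difference. Of 15 PRC2 subunits, cofactors and demethylases 0 were called by limma in either direction, with 3 higher and 4 lower at an unadjusted p under 0.05. EZH2, the target of the drug, stood at 11.56 and 11.50 in GSK126-treated HT against 11.73 and 11.71 in DMSO-treated HT, and between 11.57 and 12.29 in the other lines. Its HT response was -0.19 ± 0.06 (adjusted p = 0.0844) and the difference -0.24 ± 0.08 (adjusted p = 0.131; 0.0391 in the fit over all 40 arrays). Differences of the partners EED and SUZ12 were -0.11 ± 0.07 and -0.06 ± 0.08, that of the paralog EZH1 -0.12 ± 0.14, and those of the H3K27 demethylases KDM6A and KDM6B -0.15 ± 0.11 and -0.30 ± 0.13. KDM6B fell in HT (-0.41 ± 0.11, adjusted p = 0.0288). The probe sets of EZH1 and of KDM6A differed in sign, and since GSK126 acts on the enzyme, the RNA level of EZH2 does not check the treatment.

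Among genes that also fell in HT, the lowest differences belonged to CHAC1, ADAM33, IL1RAPL2, C17orf99, EGR1, HAS2, LOC101928343, LINC02078, SAMD10 and CEBPB. Of these, IL1RAPL2, C17orf99, HAS2, LOC101928343, LINC02078 and SAMD10 kept their calls in 14, 8, 15, 17, 5 and 6 of 21 alternatives. C17orf99 lay above the array median only on the 2 HT DMSO arrays, so its entry into the test depended on the group where it was high. LINC02078 lay above it only on those 2 arrays and 1 Toledo GSK126 array, so its entry also depended on the HT DMSO group. CHAC1, an enzyme that degrades glutathione, and CEBPB, a transcription factor, are known targets of ATF4, the factor that turns on amino acid synthesis and import when amino acids run short or proteins misfold. Genes of that programme often carry the element TGATGNAA, bound by C/EBP and ATF factors. It was searched on both strands, as TGATGNAA or its reverse complement TTNCATCA, and no other element was searched for. A match lay in 228 of the 10853 promoter windows (2.10%) and in 5 of the 21 windows of the amino acid stress list. The windows of the 4 called list members with a match are shown, chosen after their values were seen, with the match in capitals.
CHAC1, chr15:40953221-40953520, plus strand: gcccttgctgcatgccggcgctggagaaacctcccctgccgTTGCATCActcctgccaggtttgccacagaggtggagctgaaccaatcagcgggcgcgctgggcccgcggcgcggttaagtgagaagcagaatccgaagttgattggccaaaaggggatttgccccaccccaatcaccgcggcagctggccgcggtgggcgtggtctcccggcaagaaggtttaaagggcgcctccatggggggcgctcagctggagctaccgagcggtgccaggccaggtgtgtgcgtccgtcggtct
ASNS, chr7:97872359-97872658, minus strand: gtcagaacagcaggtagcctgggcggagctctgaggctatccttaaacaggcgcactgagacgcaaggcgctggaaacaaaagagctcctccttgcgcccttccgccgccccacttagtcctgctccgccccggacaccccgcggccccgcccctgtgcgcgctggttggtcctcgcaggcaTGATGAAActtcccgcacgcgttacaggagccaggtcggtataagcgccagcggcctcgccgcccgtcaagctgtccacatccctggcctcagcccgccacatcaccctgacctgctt
SLC3A2, chr11:62881449-62881748, plus strand: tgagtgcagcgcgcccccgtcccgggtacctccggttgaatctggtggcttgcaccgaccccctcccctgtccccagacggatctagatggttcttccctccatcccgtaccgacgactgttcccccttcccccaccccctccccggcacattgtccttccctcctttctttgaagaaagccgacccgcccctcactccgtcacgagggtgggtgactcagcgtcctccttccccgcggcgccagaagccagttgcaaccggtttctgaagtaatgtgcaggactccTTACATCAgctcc
SLC7A1, chr13:29595639-29595938, minus strand: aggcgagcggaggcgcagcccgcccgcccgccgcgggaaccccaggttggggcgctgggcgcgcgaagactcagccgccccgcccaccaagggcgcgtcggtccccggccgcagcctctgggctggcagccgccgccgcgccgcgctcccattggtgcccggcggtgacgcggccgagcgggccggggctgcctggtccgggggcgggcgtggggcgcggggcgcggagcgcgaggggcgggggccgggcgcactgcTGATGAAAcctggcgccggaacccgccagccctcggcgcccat
ASNS makes asparagine, SLC3A2 is the heavy chain of amino acid transporters and SLC7A1 imports arginine and lysine. The matches begin at positions -209, -68, 38 and 8 from the start, and they are descriptions of the letters, not bound sites.

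The amino acid stress genes fell in HT. All 26 genes of the list were tested, and 12 were lower in HT and 0 higher (all genes 1.33% and 2.67%). The median difference was -0.57 against 0.0038 over all genes. In HT 16 fell (all genes 3.16%), while in OCI-LY-19 and in Toledo 0 were called. The 12 called genes were CHAC1, CEBPB, CTH, TRIB3, PSAT1, SLC7A5, ATF5, ASNS, SLC3A2, SLC7A1, CEBPG and ATF4 itself. Their responses ran from -2.45 to -0.38 in HT, from -0.28 to 0.31 in OCI-LY-19 and from -0.09 to 0.22 in Toledo. Of the 26 differences 25 were negative.

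CHAC1 stood at 8.53 and 8.37 in GSK126-treated HT against 11.35 and 10.45 in DMSO-treated HT. It stood at 5.30 and 6.13 against 5.67 and 6.32 in OCI-LY-19, and at 8.81 and 9.20 against 8.98 and 8.99 in Toledo. The HT vehicle arrays lay above every other array. The HT response was -2.45 ± 0.32 and the difference -2.32 ± 0.40 (adjusted p = 0.00699).

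CEBPB stood at 10.15 and 10.22 in GSK126-treated HT against 11.76 and 10.99 in DMSO-treated HT, and between 11.01 and 11.23 in the other lines. Its difference was -1.19 ± 0.21 (adjusted p = 0.00848). CTH, which makes cysteine, stood at 10.63 and 10.64 in GSK126-treated HT against 11.95 and 11.31 in DMSO-treated HT, with a difference of -1.08 ± 0.19 (adjusted p = 0.00774). TRIB3, a pseudokinase induced by ATF4, stood at 11.08 and 10.97 against 11.93 and 11.45, with a difference of -0.93 ± 0.15 (adjusted p = 0.0053). In all 4 genes HT DMSO replicate 1 was the higher of its pair, and both treated arrays lay below both vehicle arrays.

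The count of 12 was 7 without HT DMSO replicate 1, 7 without HT GSK126 replicate 1, 6 without HT GSK126 replicate 2 and 4 without the intensity trend in the fit. CHAC1 and TRIB3 kept their calls under every alternative run, and CEBPB and CTH under all but the fit without a trend. In mutant lines CHAC1, CEBPB, CTH and TRIB3 fell in 2, 3, 3 and 4 of 7.

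**Figure D3:**
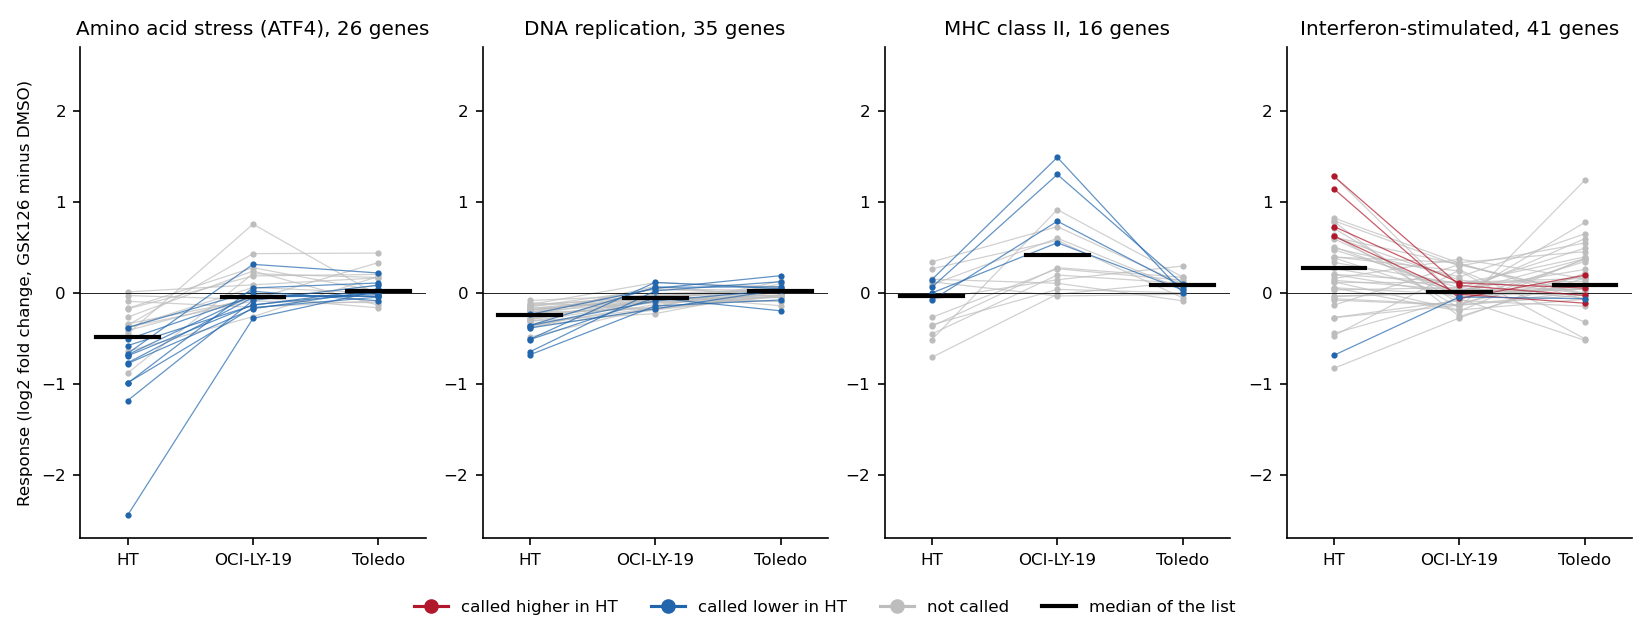
Responses (log2 fold change, GSK126 minus DMSO) of every tested gene of 4 lists in HT, OCI-LY-19 and Toledo, with each gene joined by a line and the list median as a black bar. The amino acid stress median lies at -0.48 in HT, against -0.04 in OCI-LY-19 and 0.02 in Toledo, and the MHC class II median is highest in OCI-LY-19, at 0.41.

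EGR1, an immediate early transcription factor, stood at 6.90 and 6.85 in GSK126-treated HT against 8.67 and 8.25 in DMSO-treated HT, at 9.60 and 9.77 against 9.10 and 9.32 in OCI-LY-19, and at 6.33 and 6.93 against 6.15 and 6.43 in Toledo. The difference was -1.98 ± 0.27 (adjusted p = 0.00238), and it was called under all 21 alternatives. The other EGR1 probe sets gave -1.47 and -0.23, so its size depends on the probes. ADAM33, a membrane metalloproteinase, stood at 6.15 and 6.32 in GSK126-treated HT against 8.13 and 7.98 in DMSO-treated HT, and between 6.34 and 7.25 in the other lines, with a difference of -2.15 ± 0.30 (adjusted p = 0.00238; 0.195 in the fit over all 40 arrays). HAS2, which makes hyaluronan, stood at 4.55 and 4.66 against 6.63 and 6.12 in HT. In OCI-LY-19 it stood at 6.28 and 6.62 against 7.20 and 6.71, and in Toledo at 6.24 and 6.72 against 5.46 and 5.68. Its Toledo response was 0.91 ± 0.33 and was not called by limma (adjusted p = 0.632). HT against OCI-LY-19 alone was not called for HAS2 either (adjusted p = 0.221). The cytokines TNF and lymphotoxin beta (LTB) fell in HT by 0.89 ± 0.16 and 0.82 ± 0.12, with differences of -0.98 ± 0.19 (adjusted p = 0.0137) and -0.63 ± 0.14 (adjusted p = 0.0308). They were the lower members among 20 NF-kB genes (all genes 1.33%), of which CD83 was higher by 0.61 ± 0.14 (all genes 2.67%). TNF, LTB and CD83 kept their calls in 19, 13 and 12 of 22 alternatives, and all 3 lost them without HT DMSO replicate 2, HT GSK126 replicate 1 or HT GSK126 replicate 2.

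Genes of DNA replication fell in HT by small amounts. Of 35 tested, 8 were lower and 0 higher (all genes 1.33% and 2.67%). The median difference was -0.25, against 0.0038 over all genes, and 34 of 35 differences were negative. In HT 19 fell (all genes 3.16%), and 0 were called in the other lines. CDC6, which loads the replicative helicase, stood at 10.81 and 10.82 in GSK126-treated HT against 11.49 and 11.51 in DMSO-treated HT, at 11.47 and 11.46 against 11.62 and 11.60 in OCI-LY-19, and at 11.45 and 11.41 against 11.54 and 11.48 in Toledo. Its difference was -0.57 ± 0.06 (adjusted p = 0.000736). ORC1, of the origin recognition complex, and PRIM1, a primase subunit, differed by -0.72 ± 0.12 (adjusted p = 0.00649) and -0.59 ± 0.09 (adjusted p = 0.0039). GINS2, of the helicase, differed by -0.42 ± 0.07, and its probe sets did not share a sign.

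Of 31 mitosis genes 4 were lower and 0 higher: the kinase AURKB (-0.58 ± 0.10), the checkpoint gene BUB1 (-0.39 ± 0.08), MKI67 (-0.35 ± 0.07) and cyclin A2 (CCNA2, -0.31 ± 0.07). Over all genes 1.33% were lower and 2.67% higher. The median difference of the mitosis genes was -0.12, against 0.0038 over all genes. Without HT DMSO replicate 1 the lower counts were 4 replication and 1 mitosis gene, without HT DMSO replicate 2 they were 5 and 2, without HT GSK126 replicate 2 they were 5 and 2, and the mitosis count without HT GSK126 replicate 1 was 2; the replication count was 5, 4 and 4 without OCI-LY-19 DMSO replicate 1, GSK126 replicate 1 or GSK126 replicate 2. Averaging probe sets left 4 and 0, the fit without a trend 4 and 1, and BUB1 probe sets differed in sign.

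MHC class II genes, which present antigen to helper T cells, gave lower differences in another way, since 6 of 16 rose in OCI-LY-19 and 0 in HT. Of 16 tested, 4 were lower in HT and 0 higher (all genes 1.33% and 2.67%), with a median difference of -0.42. In OCI-LY-19 6 rose (all genes 1.63%), in HT 0 rose and 2 fell (all genes 6.68% and 3.16%), and in Toledo 0 were called. HLA-DRA stood at 10.98 and 10.99 in GSK126-treated OCI-LY-19 against 9.29 and 9.71 with DMSO. In HT it stood at 12.13 and 12.06 against 11.98 and 11.93, and in Toledo at 14.19 and 14.16 against 14.18 and 14.17. The OCI-LY-19 response was 1.49 ± 0.10, and even its treated arrays stayed below every HT and Toledo array.

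HLA-DRB1, whose probe set may also read its close paralogs, rose by 1.30 ± 0.07 in OCI-LY-19, against 0.06 ± 0.07 in HT and 0.10 ± 0.07 in Toledo. HLA-DMA, which loads peptide, rose by 0.79 ± 0.08 in OCI-LY-19, against -0.08 ± 0.08 and 0.07 ± 0.08 in HT and Toledo. The differences were -0.60 ± 0.12 for HLA-DRA (adjusted p = 0.0168), -0.64 ± 0.09 for HLA-DRB1 (adjusted p = 0.00238) and -0.51 ± 0.10 for HLA-DMA (adjusted p = 0.0157). The invariant chain CD74 was at -0.29 ± 0.07 (adjusted p = 0.0297), and at 0.16 when its probe sets, which differ in sign, were averaged. Tested between the other lines, HLA-DRA rose more in OCI-LY-19 than in Toledo by 1.49 (adjusted p = 0.00058) and HLA-DRB1 by 1.20 (adjusted p = 0.000297). Without HT DMSO replicate 1, HT GSK126 replicate 1 or HT GSK126 replicate 2, the 4 lower genes became 1.

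Other genes showed the same layout. SPIB, a B cell transcription factor, stood at 9.51 and 9.52 in GSK126-treated OCI-LY-19 against 8.28 and 8.12 with DMSO, at 12.84 and 12.74 against 12.67 and 12.64 in HT, and at 12.82 and 12.84 against 12.92 and 12.91 in Toledo. Its difference was -0.48 ± 0.08 (adjusted p = 0.0051). The 3 lowest differences of this kind, with no HT call and a rise in another line, belonged to the pseudogene OR7E47P (-1.42 ± 0.25, adjusted p = 0.00769), TMC8 (-1.10 ± 0.20) and the transcription factor CREB5 (-1.02 ± 0.21). OR7E47P rose in OCI-LY-19 by 1.77 ± 0.20, to 7.11 and 7.36 with GSK126 against 5.46 and 5.48 with DMSO, next to 7.35 to 7.62 in HT.

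Of 31 B cell receptor and identity genes, 1 was higher and 5 were lower in HT (all genes 2.67% and 1.33%), while 8 rose in OCI-LY-19 (all genes 1.63%). Besides SPIB and CD74 the lower ones were LYN, the kinase SYK (-0.41 ± 0.08) and PAX5 (-0.39 ± 0.08), the factor that keeps B cell identity. PAX5 fell in HT, to 12.66 and 12.64 with GSK126 against 12.99 and 13.09 with DMSO. Of 22 tested plasma cell genes 2 were higher and 1 lower (all genes 2.67% and 1.33%). In HT 6 of the 22 rose and 2 fell (all genes 6.68% and 3.16%). The plasma cell gene TNFRSF17 (BCMA) rose in HT, to 10.73 and 10.67 against 9.82 and 9.86, with a difference of 0.84 ± 0.15 (adjusted p = 0.00796), and JCHAIN was higher by 0.40 ± 0.10, a call kept in 5 of 21 alternatives and lost without HT DMSO replicate 1, HT GSK126 replicate 1, HT GSK126 replicate 2 or any of 7 arrays of the other lines. XBP1, a driver of secretion in plasma cells, was lower, at -0.59 ± 0.14, with probe sets that differed in sign. Of 21 tested germinal centre genes 0 were higher and 3 lower, namely PAX5, GCSAM (-1.18 ± 0.27) and the transcription factor MEF2C (-0.55 ± 0.08, adjusted p = 0.00383), and 1 was lower without HT DMSO replicate 2 or HT GSK126 replicate 2. In HT 2 genes of that list rose, LMO2 and TCL1A, and 3 fell (all genes 6.68% and 3.16%). Among the 5 lower identity genes 2, 3, 1 and 3 were left without HT DMSO replicate 1, HT DMSO replicate 2, HT GSK126 replicate 1 and HT GSK126 replicate 2, and 2 without OCI-LY-19 GSK126 replicate 2.

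In 9 of the called genes HT and OCI-LY-19 were called in opposite directions. Over all genes tested 6.68% rose and 3.16% fell in HT, and 1.63% rose and 0.215% fell in OCI-LY-19. Genes were chosen by the difference between the lines, which favours opposite directions. Whether 9 exceeds what these shares would give was not tested. PHYH, a peroxisomal enzyme that breaks down phytanic acid, stood at 8.32 and 8.57 in GSK126-treated HT against 7.68 and 7.60 with DMSO. In OCI-LY-19 it stood at 12.28 and 12.20 against 12.63 and 12.74, and in Toledo at 8.75 and 8.76 against 8.76 and 8.87. It rose by 0.81 ± 0.10 in HT and fell by 0.45 ± 0.10 in OCI-LY-19, with a difference of 1.06 ± 0.12 (adjusted p = 0.000736). In this gene the line with the higher level fell and the line with the lower level rose.

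TFDP2, a partner of E2F factors, stood at 10.66 and 10.64 against 10.22 and 10.02 in HT and at 11.19 and 11.21 against 11.53 and 11.58 in OCI-LY-19, each pair GSK126 before DMSO. The adhesion molecule ALCAM rose in HT by 0.47 ± 0.06 and fell in OCI-LY-19 by 0.31 ± 0.06, although HT held the higher level. SUSD3 did the reverse: it stood at 9.94 and 10.01 in GSK126-treated HT against 10.56 and 10.42 with DMSO, and at 9.15 and 9.04 against 8.14 and 8.36 in OCI-LY-19. Its difference was -0.87 ± 0.16 (adjusted p = 0.00987). The glycogen branching enzyme GBE1 and the glycosyltransferase B3GNT2 rose in HT and fell in OCI-LY-19, and PIK3C2B, FAM107B and ENTPD4 fell in HT and rose in OCI-LY-19, with differences of -0.49 to 0.62. PHYH, TFDP2, ALCAM and GBE1 kept their calls under all 22 alternatives. SUSD3 lost its call without HT DMSO replicate 1 (adjusted p = 0.0597), without HT GSK126 replicate 1 (adjusted p = 0.0587), in the fit over all 40 arrays and with averaged probe sets.

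Some genes rose in both HT and OCI-LY-19. Of the genes risen in HT 75 also rose in OCI-LY-19, which is 8.33% of the HT list (all genes tested 1.63%) and 34.1% of the OCI-LY-19 list (all genes tested 6.68%), and 18 of the 75 were higher in HT by the direct test. Chosen after their values were seen, TMEM170B rose by 1.91 in HT and 2.69 in OCI-LY-19, the TGF-beta receptor TGFBR1 by 1.14 and 1.27, and the complement regulator CD59 by 1.52 and 0.87. Of these CD59 differed between HT and the other lines, by 1.08 (adjusted p = 0.000108). Fallen in both were CPT1A, DHRS13, MAP1LC3B, RUSC1 and SOD2. Called in the same direction in all 3 lines were 0 risen and 0 fallen genes by limma.

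The higher genes started lower in HT. In 243 of the 360 (67.5%) the HT vehicle mean lay below both other vehicle means, against 37.0% of all genes tested. Their median level was 10.01 in GSK126-treated HT and 9.36 in DMSO-treated HT, against 10.47 in DMSO-treated OCI-LY-19 and 10.34 in DMSO-treated Toledo. Of the 179 lower genes 69 (38.5%) had an HT vehicle mean above both others, against 34.2% of all genes. The HT vehicle arrays enter both the level and the response, so error in them moves both; among the higher genes 34 (9.44%) lay below the array median on both HT vehicle arrays, against 11.4% of all genes.

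Between the other lines, the response of OCI-LY-19 exceeded that of Toledo in 221 of the 360 higher genes (61.4%), against 48.0% of all genes. The median responses of the 360 were 0.64 in HT, 0.05 in OCI-LY-19 and -0.004 in Toledo. For the 179 lower genes they were -0.43, 0.04 and 0.03, and OCI-LY-19 lay above Toledo in 88 of them (49.2%). The HT arrays play no part in the contrast of OCI-LY-19 with Toledo. The arrays of these other lines did enter, as a mean, the difference by which the genes were chosen, so the shares are not independent of that choice.

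The 7 EZH2 mutant lines were used to see where else these genes moved, from a limma fit over all 40 arrays. The mutant arrays had no part in the test that chose the genes. They did enter the pseudocount and the choice of the probe set read for each gene. Of the 360 higher genes, 50% rose in Pfeiffer, against 16.2% of all genes. The share was 48.3% for WSU-DLCL2 (all genes 15.5%), 55.3% for KARPAS-422 (all genes 17.1%), 45.3% for SU-DHL-10 (all genes 12%), 41.1% for SU-DHL-6 (all genes 8.38%), 15.8% for DB (all genes 2.87%) and 25% for SU-DHL-4 (all genes 2.43%). Each share lay above the share of all genes. Of the 179 lower genes, 37.4% fell in Pfeiffer, against 11.4% of all genes. Here the share was 41.9% for WSU-DLCL2 (all genes 14.4%), 43.6% for KARPAS-422 (all genes 15.3%), 34.1% for SU-DHL-10 (all genes 8.18%), 19% for SU-DHL-6 (all genes 4.19%), 3.91% for DB (all genes 0.705%) and 7.26% for SU-DHL-4 (all genes 0.556%). The opposite direction occurred too. Of the higher genes 4.44% fell in Pfeiffer (all genes 11.4%), 13.1% in WSU-DLCL2 (all genes 14.4%), 10.6% in KARPAS-422 (all genes 15.3%), 9.72% in SU-DHL-10 (all genes 8.18%), 2.78% in SU-DHL-6 (all genes 4.19%), 0.833% in DB (all genes 0.705%) and 0.556% in SU-DHL-4 (all genes 0.556%). Of the lower genes 24.6% rose in Pfeiffer (all genes 16.2%), 15.6% in WSU-DLCL2 (all genes 15.5%), 21.2% in KARPAS-422 (all genes 17.1%), 8.94% in SU-DHL-10 (all genes 12%), 10.1% in SU-DHL-6 (all genes 8.38%), 10.1% in DB (all genes 2.87%) and 2.23% in SU-DHL-4 (all genes 2.43%). In DB more of the lower genes rose than fell.

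Of the 360 higher genes 128 (35.6%) rose in at least 4 mutant lines, against 4.41% of all genes, 12 rose in all 7 and 45 in none. Of the 179 lower genes 37 (20.7%) fell in at least 4, against 2.29%, and 50 in none. These shares are descriptions with no test, and genes whose probe sets are bright and repeat closely are easier to call in any line. With equal array medians 35.7% of the lower genes fell in SU-DHL-6 and 11% in SU-DHL-4, and with averaged probe sets 1.67% fell in DB.

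**Figure D4:**
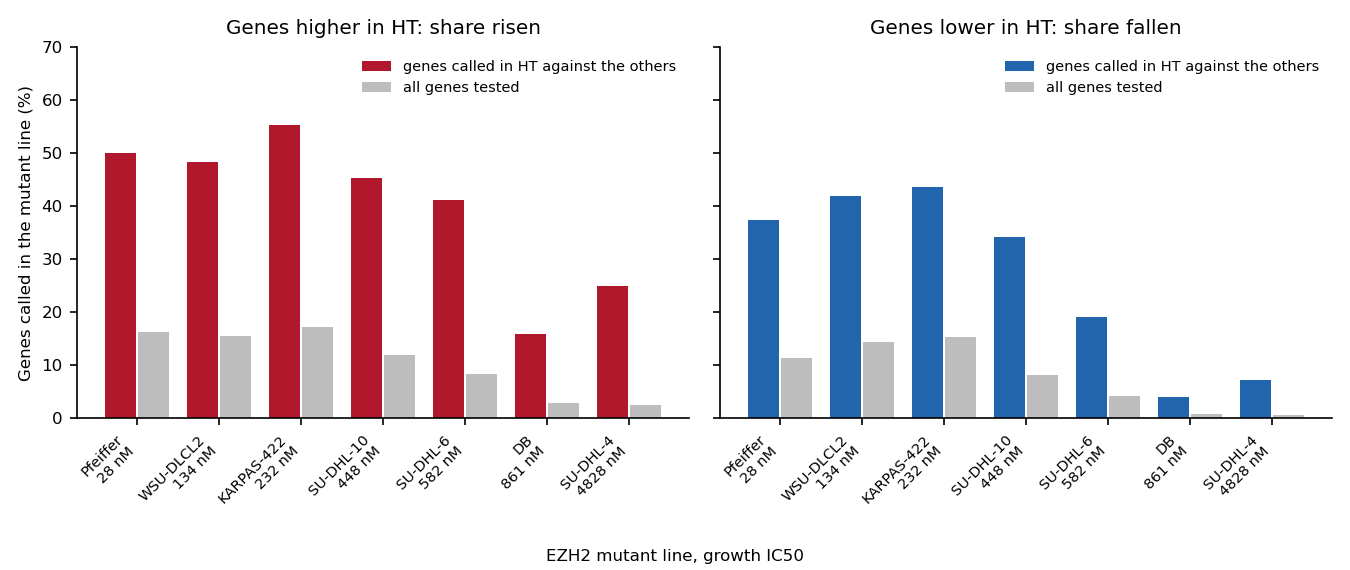
Share of genes called in each EZH2 mutant line, ordered by growth IC50, for the genes called in HT against the other wild type lines (coloured) and for all 13479 genes tested (grey); the left panel gives rises among the 360 higher genes and the right panel falls among the 179 lower genes. The coloured bar is above the grey one in each line, from 15.8% against 2.87% in DB to 55.3% against 17.1% in KARPAS-422 on the left.

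Several further gene groups gave 3 calls or fewer. Over all genes 2.67% were higher and 1.33% lower, so a single call in a short list says little about the list. Heat shock proteins had 2 of 12 higher, HSPB1 (0.99 ± 0.22) and the chaperone partner BAG3 (0.73 ± 0.12, adjusted p = 0.0056). Of 9 tested HOX genes HOXB7 was higher (0.41 ± 0.10), of 21 p53 targets SESN1 (0.84 ± 0.19), of 28 glycolysis and hypoxia genes MXI1 (0.44 ± 0.07) and of 17 MHC class I genes HLA-G (0.74 ± 0.18), with TAP1 (-0.48 ± 0.10) and PSMB9 (-0.34 ± 0.08) lower. The HLA-G probe sets differed in sign and may read other class I genes. Of 22 apoptosis regulators PMAIP1 was lower (-0.73 ± 0.15), and of 19 MYC targets CAD, an enzyme of pyrimidine synthesis (-0.41 ± 0.07). HSPB1 kept its call in 8 of 21 alternatives. HOXB7, SESN1, HLA-G, TAP1 and PSMB9 kept theirs in 10, 11, 9, 14 and 7 of 22. PMAIP1 and CAD did so in 19 and 20, and BAG3 and MXI1 in all 22. Of 24 adhesion receptors ITGA4 and CD58 were higher (all genes 2.67%), by 0.45 ± 0.11 and 0.47 ± 0.11, with CD58 probe sets of both signs. ITGA4 kept its call in 5 and CD58 in 10 of 22 alternatives, and neither did without HT DMSO replicate 2, HT GSK126 replicate 1, either OCI-LY-19 DMSO array, OCI-LY-19 GSK126 replicate 2 or Toledo DMSO replicate 2. Chromatin regulators mutated in lymphoma, developmental transcription factors, cyclin-dependent kinase inhibitors, death receptors and cholesterol synthesis genes had 0 calls by limma among 16, 18, 6, 11 and 20 tested. At an unadjusted p under 0.05 they had 1, 0, 0, 0 and 1 higher and 3, 1, 0, 1 and 1 lower members.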

How the data were processed

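The authors deposited 1 table of log2 MAS5 signals for 40 Affymetrix arrays, MAS5 being named in the submitters' processing notes, and each array's linear signals have a 2% trimmed mean of 500. No version is given in the sources used here. From it, log2(signal + 17.72) was computed, the pseudocount being the median over arrays of the 25th percentile. Of 54675 probe sets, 41091 have 1 gene symbol, 1801 several and 11721 none, and 62 are controls; a gene was read from its single-symbol probe set of highest mean (19775 genes). Of these, 13479 lay above the array median on at least 2 of the 12 arrays.

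Means of the 6 groups were fitted with limma 3.58.1 in R 4.3.3 (eBayes with an intensity trend, 6 residual and 5.74 prior degrees of freedom), and contrasts were tested on both sides with Benjamini-Hochberg adjustment. The main fit has no replicate term, since same-numbered arrays deviated together in no line (r from -0.008 to 0.028). The number of arrays limits the precision. On simulated data over 13479 genes, 23.9%, 65.7% and 80.3% of differences of 0.5, 1 and 2 were recovered, with 7 false calls.

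The members, gene lists and named genes were chosen with earlier results of these data known. Named were the 10 highest and 10 lowest called differences with an HT call in that direction, the 3 lowest with no HT call and a rise in another line, opposite calls, up to 4 called members per list, EZH2, EED, SUZ12, EZH1, KDM6A, KDM6B, TXNIP, TNFRSF21 and CDKN1A. Alternatives covered the arrays in the fit, pseudocount, filter, scaling, probe sets, trend, replicate term and each array left out.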

Additional observations from a re-analysis of the deposited data

Results flagged for a closer look

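Effects of GSK126 that differed between lines by a direct test of the difference, from the same limma fit, are listed here. HT against the mean of OCI-LY-19 and Toledo gave 360 higher and 179 lower genes. HT against OCI-LY-19 gave 228 higher and 156 lower, HT against Toledo 312 higher and 114 lower, and OCI-LY-19 against Toledo 49 higher and 5 lower. These comparisons share arrays.

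Among the called genes, 9 were also called in opposite directions in HT and OCI-LY-19. Over all genes tested 6.68% rose and 3.16% fell in HT, and 1.63% rose and 0.215% fell in OCI-LY-19. Whether 9 exceeds what these shares would give was not tested. The difference of HT from the mean of the others was 1.06 for PHYH, 0.74 for TFDP2, 0.62 for ALCAM, 0.62 for GBE1 and 0.57 for B3GNT2, which rose in HT. It was -0.87 for SUSD3, -0.49 for PIK3C2B, -0.39 for FAM107B and -0.38 for ENTPD4, which fell in HT. Groups of 2 arrays are too small for a check of single arrays that stand apart.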

How the results depend on the processing

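With 1 array left out, the genes higher in HT numbered 189 to 360 and the lower ones 70 to 187; those called against OCI-LY-19 156 to 420, against Toledo 202 to 397, and between OCI-LY-19 and Toledo 26 to 54. HT risen genes ran from 519 to 936 and fallen from 182 to 494, OCI-LY-19 from 97 to 220 and from 14 to 38, and Toledo from 1 to 8 and from 0 to 12. The lone array of a group was assumed to vary like the others, and fewer samples entered these fits. With all 40 arrays, 67 genes fell in OCI-LY-19, 20 rose and 4 fell in Toledo, and 119 differed between those lines. Toledo had 0 fallen genes with a pseudocount of 1, 0 risen and 0 fallen with 4 times the pseudocount, 1 and 0 with no filter, 0 and 0 with genes above the median on all 12 arrays, and 1 risen with quantile normalization. Equal medians gave 877 fallen in HT and 49 in OCI-LY-19. The mean of probe sets gave 192 higher genes, 113 risen and 18 fallen in OCI-LY-19, 211 called against OCI-LY-19 and 219 against Toledo, and reversed CD74 (0.16) and ARID5B (-0.13). Without the intensity trend 220 were higher and 74 lower, 236 fell in HT, 10 in OCI-LY-19 and 0 in Toledo, and 159, 183 and 19 were called against OCI-LY-19, against Toledo and between those lines. With the replicate block, whose numbers did not pair the arrays, 286 were higher and 127 lower, 15 fell in OCI-LY-19 and 0 in Toledo, 244 were called against OCI-LY-19 and 24 between OCI-LY-19 and Toledo. The cause of these shifts was not tested.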
